A study of Mus musculus with 24 samples.

Results

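Genes of mitochondrial protein import, with the chaperones, peptidases and prohibitins that receive the imported chains, were followed across 24 arrays of mouse blastocysts. The members are all genes whose symbol begins with Timm or Tomm, together with Hspd1, Hspe1, Hspa9, Trap1, Grpel1, Dnajc19, Pam16, Clpp, Lonp1, Pmpca, Pmpcb, Phb and Phb2. They were counted where a probe set carried that symbol alone, and the probe set with the highest mean stood for a gene. This gave 37 members among the 19938 genes named on the array. Genes entered the tests if 4 or more of the 24 arrays lay above 2.56, the median of the whole log2 table, which left 13311 genes and 33 members. No member passed through the arrays of 1 group alone, and 23 exceeded the median on every array. Timm9, Timm29, Timm8a2 and Timmdc1 were too dim to test, with highest values of 2.61, 2.66, 2.48 and 2.95. Phb and Timm10b also meet the rule, but their probe sets carry several gene symbols and they are not named here.

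Each array held the pooled lysate of 3 embryos of 1 sex and 1 mother, collected 3.5 days after mating of outbred RjHan:NMRI mice. From the age of 3 weeks, parents were kept for 9 weeks on a diet rich in fat and calories (HFD) or on its control diet (CD), and they were mated at 12 weeks. All animals received the control diet during mating. The embryos had an obese (HFD) father and a lean (CD) mother, an obese mother and a lean father, or lean parents. With embryos called male (XY) or female (XX), this made 6 groups of 4 arrays, here named by parents and sex, and the array numbers below are those of the labels (1 to 24). The labels do not name the parents of a pool, so pools may share a parent, and the p-values rest on pools taken as independent. The study's question was whether obesity of either parent shifts the blastocyst transcriptome in a way that depends on embryonic sex.

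Mitochondria make only a handful of their own proteins, and the rest are built in the cytosol and imported. Nearly all of them cross the outer membrane through the TOM complex. The TIM23 complex and its motor, driven by the Hsp70 chaperone encoded by Hspa9, pull chains with a cleavable presequence into the matrix, while small Tim proteins escort hydrophobic carriers to the TIM22 complex. In the matrix the presequence is removed by a peptidase made of Pmpca and Pmpcb, chains fold inside the Hsp60 and Hsp10 chamber encoded by Hspd1 and Hspe1, and Clpp and Lonp1 degrade damaged proteins. The blastocyst inherits its mitochondria from the oocyte.

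Values are log2 signals, and signals of different probe sets do not rank the abundance of different genes. Each array was also described by the SD over its probe sets, called its signal spread here, which ran from 1.27 (array 4, lean-parent male) to 1.81 (array 22, obese-father female). Array 12, an obese-father male at 1.72, was the other array of wide spread. In comparisons that hold arrays 12 or 22, counts over all tested members above 0 or at an unadjusted p under 0.05 are also given without both. Counts by role and counts of groups without overlap are given with all arrays. Blastocyst identity was checked on markers. All 6 trophectoderm markers examined, Cdx2 and Krt8 among them, exceeded the table median on every array, as did 4 of 5 inner cell mass markers, the exception being Sox2 (21 arrays). Of 3 named blood markers (Ptprc, Cd14, Lyz2) none exceeded the median on any array. Of 7 named markers of cumulus and granulosa cells, Amh, Nr5a1 and Foxl2 exceeded it on every array, while Inhba did so on 20, Has2 on 4, Fshr on 1 and Ptx3 on 0. The mean level of this list ran from 2.48 to 3.23 over the arrays. Of 4 oocyte markers, Zp3 exceeded the median on 23 arrays, Gdf9 on 7 and Bmp15 and Oosp1 on 0, and the list mean ran from 1.61 to 2.56. Of 5 named markers of uterine and oviduct epithelium 1 (Wfdc2) and of 4 sperm markers 3 exceeded it on every array, with list means of 2.42 to 2.99 and 3.14 to 3.64. The part of these lists in the results below was not tested.

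The comparison of male embryos of obese fathers with males of lean parents held the largest differences among members. Timm23, Hspe1 and Hspd1 stood more than 1.5 log2 units higher on average, and Tomm6 stood 0.78 higher with less scatter. No member passed: in limma, 0 of 33 had a Benjamini-Hochberg adjusted p under 0.05, against 0.00751% of all genes tested. At an unadjusted p under 0.05 there were 6 members on the higher side (background 4.3%) and 0 on the lower side (background 10.4%). The 6 were Tomm6, Timm23, Hspe1, Hspd1, Timm21 and Clpp. The fold change was above 0 for 26 of 33 members, against 33.3% of all genes, and its median was 0.45, against -0.11 over all genes tested. This background, here and below, is not matched for brightness. The median of the members ran from 3.42 (array 4) to 5.01 (array 22) over the arrays. The median of all genes tested was 3.12 and 2.91 on these 2 arrays. The part of brightness in the shares above 0 was not tested. Standard errors of members ran from 0.12 to 1.06, so that the most variable members could differ by more than 1 log2 unit without passing. In pooled embryos a different number of cells of a type and a different amount of RNA per cell cannot be told apart.

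The mean signal spread was higher in obese-father males, but the difference did not pass. It was 1.56 ± 0.11 (SD, n = 4) in obese-father males and 1.38 ± 0.12 (n = 4) in lean-parent males (exact permutation test, two-sided, p = 0.114, and 0.457 after Benjamini-Hochberg adjustment over 4 comparisons). In the fit that took the spread as a covariate, the median of the members was 0.01 with 18 of 33 above 0 (background 46.6%), and the median over all genes was -0.02. Without arrays 12 and 22 the median was 0.21 with 25 of 33 above 0 (background 34.2%), and at an unadjusted p under 0.05 stood 6 members on the higher side (background 3.54%) and 0 on the lower (background 7.51%). Since the mean spread was not the same in both groups, the covariate may also remove differences between them.

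In female embryos of obese fathers the members lay on both sides of 0. Of 33, 16 stood above 0 against females of lean parents (background 54.9%), the median was -0.00 (all genes 0.02), and 0 passed in limma, as for all genes (0%). At an unadjusted p under 0.05 stood 1 member on the lower side (background 0.886%), Tomm40, and 0 on the higher side (background 1.95%). The groups overlapped for every tested member (background without overlap 0.811% higher and 0.413% lower). Array 22 belongs to this comparison, and without arrays 12 and 22 the members had a median of -0.30 with 6 of 33 above 0 (background 62.7%). At an unadjusted p under 0.05 there were then 1 on the higher side (background 4.91%) and 5 on the lower side (background 1.92%). With the spread as a covariate 15 of 33 stood above 0 (background 55.6%).

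With obese mothers, males had a median of 0.04 (all genes -0.01) with 18 of 33 members above 0 (background 46.1%). Females had a median of -0.21 (all genes 0.05) with 7 of 33 above 0 (background 61.7%). No member passed in limma in either sex, nor did any other gene (0%). At an unadjusted p under 0.05 there were 0 members in males (background 0.601% higher and 1.1% lower) and 2 in females, Tomm6 and Timm8b, both lower (background 0.541%), with 0 higher (background 1.65%). With the spread as a covariate the male median was -0.04, with 13 of 33 above 0 (background 51.9%), and the female median was -0.01, with 16 of 33 above 0 (background 55%). Leaving arrays 12 and 22 out of the shared fit gave, in males, 2 members at an unadjusted p under 0.05 on the higher side (background 1.33%) and 0 on the lower (background 1.98%), and in females 0 higher (background 3.17%) and 5 lower (background 1.24%), with fold changes as before. The spread of obese-mother females was 1.40 ± 0.09 against 1.46 ± 0.08 (n = 4 each, exact permutation p = 0.314).

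**Figure D1:**
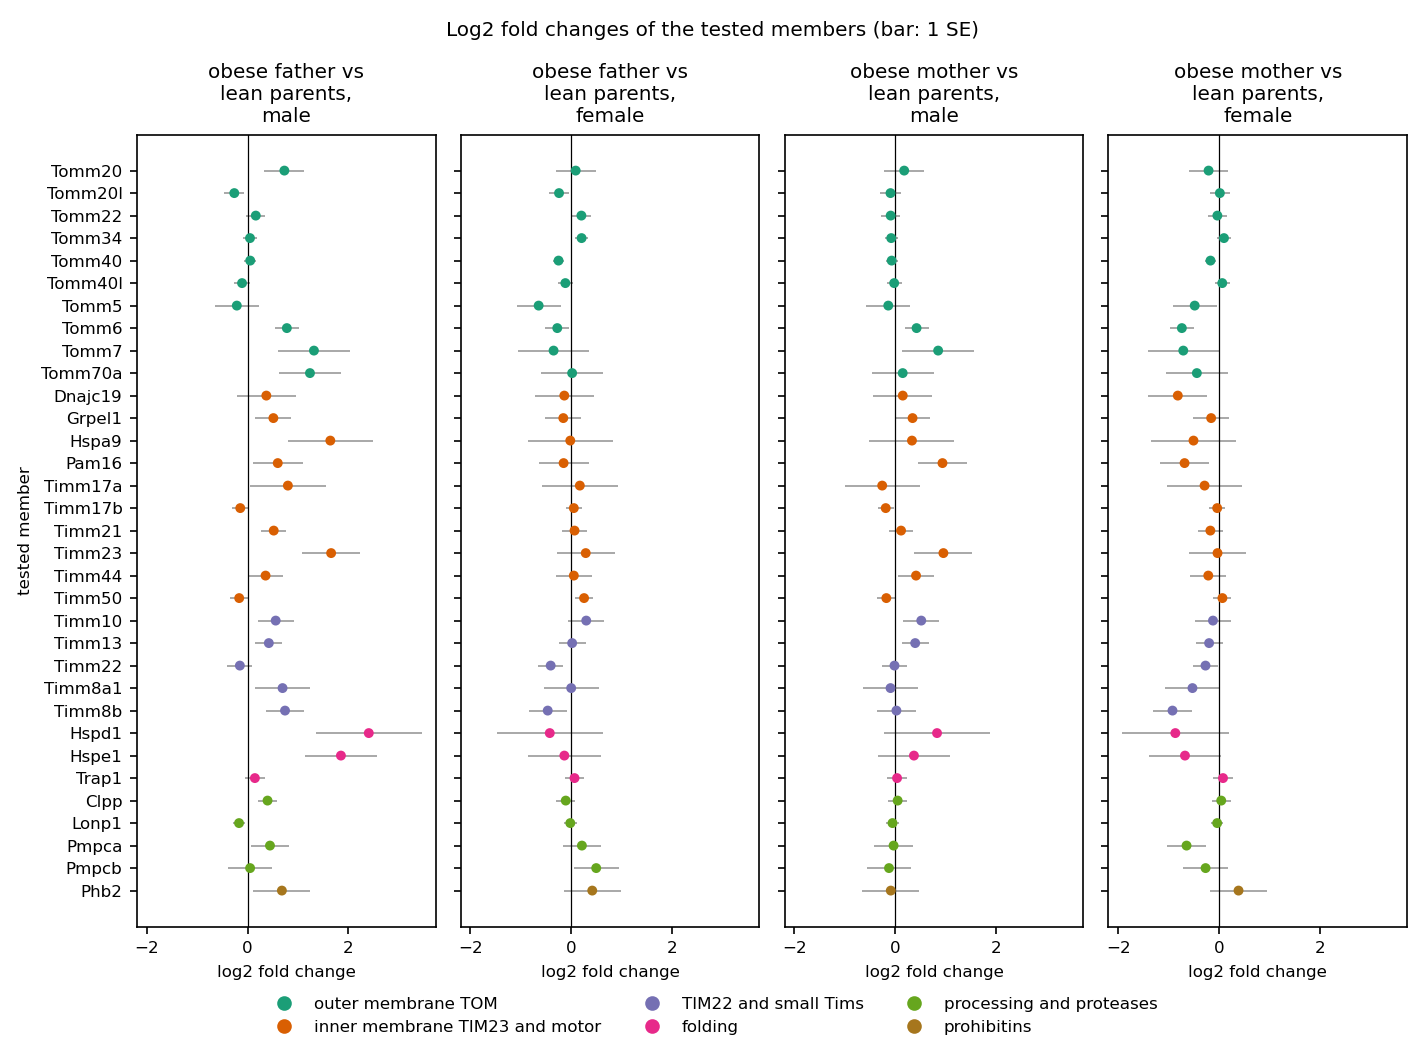
Log2 fold changes of the 33 tested members (rows, coloured by role) in the 4 comparisons of an obese parent with lean parents (columns), with bars of 1 standard error. In obese-father males 26 members lie right of 0, with Hspd1 at 2.41 and Hspe1 at 1.85, and in obese-mother females 26 lie left of it.

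The outer membrane is represented by 10 tested members. In obese-father males 7 of 10 stood above 0 with a median of 0.11, and in obese-mother females 7 of 10 stood below 0 with a median of -0.19. These medians were 0.03 and -0.06 with the spread as a covariate. Tomm6, a small subunit that stabilises the TOM channel, had the smallest p of all members in 2 of the 4 comparisons with lean parents. Its probe set gave 3.63, 3.90, 3.92 and 3.63 in lean-parent males (arrays 1 to 4) and 4.40, 4.31, 4.87 and 4.62 in obese-father males (arrays 9 to 12). Obese-mother males (arrays 5 to 8) stood at 4.06, 4.12, 4.27 and 4.34. Every male array of either obese parent therefore exceeded every lean-parent male array. In females the means ran the other way and the groups overlapped, with 4.39, 4.17, 4.69 and 5.29 for lean parents (arrays 13 to 16) and 3.47, 4.31, 3.86 and 3.97 for obese mothers (arrays 17 to 20). Obese-father females (arrays 21 to 24) spanned both, at 4.26, 4.96, 4.50 and 3.70.

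The log2 fold change of Tomm6 was 0.78 (SE 0.24, limma adjusted p = 0.316) for obese fathers in males and 0.43 (SE 0.24, adjusted p = 1) for obese mothers in males. For obese mothers in females it was -0.74 (SE 0.24, adjusted p = 0.999), and for obese fathers in females -0.28, or -0.48 without arrays 12 and 22. Groups without overlap on the higher side were seen for 2 of 33 members in obese-father males (Tomm6 and Timm23, background 1.91%) and for 1 in obese-mother males (Tomm6, background 0.548%). On the lower side there were 0 in either comparison (background 6.63% and 0.856%). The difference of the effect between the sexes, tested directly, was 1.16 for obese mothers (95% interval 0.46 to 1.86) and 1.06 for obese fathers (0.36 to 1.76). It did not pass for either parent (limma adjusted p = 1 and 0.654). These contrasts share the lean-parent arrays, in which males lay below every female at 3.77 ± 0.16 against 4.64 ± 0.49 (n = 4 each, difference -0.87, SE 0.24, limma adjusted p = 0.992). With the spread as a covariate the values were 0.53, 0.35 and -0.64 for the first 3 contrasts named. RefSeq lists a non-coding gene, Tomm6os, whose span overlaps Tomm6, and signals of the pair cannot be told apart here.

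Tomm40, the channel itself, had the narrowest range of the tested members, from 4.44 to 5.01 over the 24 arrays. Obese-father females had 4.70, 4.69, 4.50 and 4.56 and lean-parent females 5.001, 4.69, 5.01 and 4.76. The groups touched, with the highest obese-father value just above the lowest lean-parent one. The log2 fold change was -0.25 (SE 0.12, limma adjusted p = 1), and it was -0.17 for obese mothers in females and 0.05 for obese fathers in males.

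Tomm34, a cytosolic co-chaperone that helps preproteins reach the membrane, lay near the table median. It read 2.79, 2.32, 2.60 and 2.96 in obese-father females against 2.44, 2.60, 2.33 and 2.48 in lean-parent females. The groups overlapped, and the log2 fold change of 0.20 (SE 0.13) did not pass (limma adjusted p = 1). It was 0.32 without arrays 12 and 22.

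Other members of the outer membrane were compared between obese-father and lean-parent males. Tomm70a, the receptor for carrier precursors, averaged 3.96 ± 0.80 in obese-father and 2.72 ± 0.47 in lean-parent males (n = 4 each), a log2 fold change of 1.24 that was 0.08 with the spread as a covariate. Tomm20, the presequence receptor, stood at 0.73 and Tomm7, a small subunit that modulates assembly of the complex, at 1.32 in the same comparison. With the covariate both were near 0 (0.01 and 0.00). Tomm22, the central receptor, differed by 0.16 (0.02 with the covariate). Tomm20l and Tomm40l, paralogues of the receptor and the channel, lay on the other side of 0, at -0.26 and -0.11, but turned to 0.07 and 0.05 with the covariate and were -0.15 and -0.03 without arrays 12 and 22. None of these passed. Tomm5, another small subunit, ranged from 4.43 to 8.06, and the highest value came from lean-parent female array 14 alone, with the next at 5.58.

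**Figure D2:**
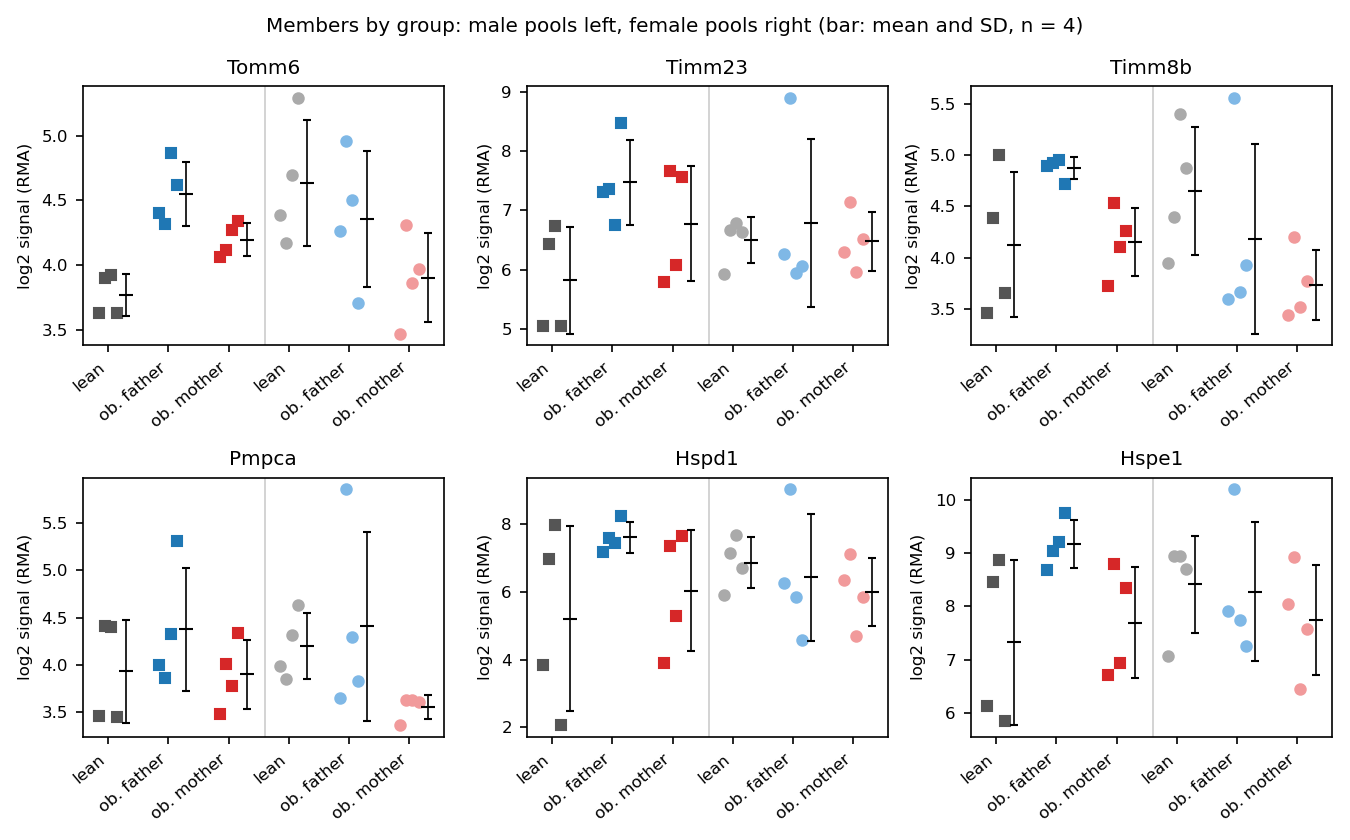
Log2 signal of 6 members on each array (points), by group, with male pools left and female pools right of the line and with mean and SD (bars, n = 4) beside the points. For Tomm6 all lean-parent males (highest 3.92) lie below all obese-father males (lowest 4.31). For all 6 members array 22 is the highest obese-father female.

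The inner membrane TIM23 channel and its motor are covered by 10 tested members, of which 8 stood above 0 in obese-father males (median 0.52) and 9 stood below 0 in obese-mother females (median -0.19). Both medians changed sign with the spread as a covariate, to -0.17 and 0.05. Timm23, which forms the channel for presequence proteins, gave 5.04, 6.44, 6.73 and 5.05 in lean-parent males and 7.31, 7.36, 6.75 and 8.47 in obese-father males. Obese-mother males gave 5.79, 7.66, 6.08 and 7.56. All obese-father males exceeded all lean-parent males, the nearest arrays being at 6.75 and 6.73, while obese-mother males fell into a lower and a higher pair. Females had 5.93, 6.67, 6.78 and 6.63 with lean parents, 6.26, 8.90, 5.94 and 6.05 with obese fathers and 6.30, 7.13, 5.95 and 6.51 with obese mothers. Array 22 stood far above the other obese-father females. The log2 fold change in obese-father males was 1.66 (SE 0.57, limma adjusted p = 0.316), and 0.48 with the spread as a covariate. It was 0.96 (SE 0.57, limma adjusted p = 1) for obese mothers in males and 0.29 for obese fathers in females. The last value turned to -0.42 without arrays 12 and 22. The annotation gives Timm23 4 probe sets, of which 1 pair carries identical values, and RefSeq names a pseudogene of it, so signal from copies cannot be told apart.

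Pam16, a subunit of the import motor that holds the J-protein in check, was highest on average in obese-mother males. They had 4.63, 5.91, 4.99 and 5.80, against 4.17, 4.68, 4.67 and 4.06 in lean-parent males. Obese-mother females had 4.63, 4.60, 4.36 and 3.89 and lean-parent females 4.24, 5.29, 5.91 and 4.78. In males 3 of 4 obese-mother arrays exceeded all lean-parent ones, and in females the means ran the other way. The log2 fold changes were 0.94 (SE 0.49) and -0.68 (SE 0.49), neither of which passed (limma adjusted p = 1 and 0.999). Their difference of 1.62 (95% interval 0.17 to 3.07) did not pass either (limma adjusted p = 1).

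Most other motor parts stood above 0 in obese-father males without passing. Hspa9, the motor's Hsp70, averaged 6.15 ± 0.51 against 4.51 ± 1.72 (log2 fold change 1.64, or 0.02 with the spread as a covariate). Its nucleotide exchange factor Grpel1 stood at 0.51, the tether Timm44 at 0.36 and the J-protein Dnajc19 at 0.37, and with the covariate all 3 were below 0 (-0.12, -0.27 and -0.67). Without arrays 12 and 22 they were 0.26, 0.08 and -0.02. Timm21, which links TIM23 with TOM and the respiratory chain, was the exception. Its value of 0.52 (SE 0.25, limma adjusted p = 0.336) was 0.52 with the covariate and 0.62 without arrays 12 and 22. The Timm21 signal exceeded the table median on 19 of 24 arrays and averaged 2.71 ± 0.30 in lean-parent males (n = 4). Timm50, the presequence receptor of TIM23, lay at -0.17. The channel partner Timm17a lay at 0.80, -0.42 with the covariate and 0.79 without arrays 12 and 22.

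Among the small Tims and TIM22, 4 of 5 tested members stood above 0 in obese-father males (median 0.56) and 0 of 5 in obese-mother females (median -0.27). The medians of the covariate fit were 0.01 and -0.19. Timm8b, a small intermembrane-space escort, was tight in obese-father males at 4.89, 4.93, 4.95 and 4.72. Lean-parent males scattered, at 3.47, 4.39, 5.004 and 3.65. Obese-mother males lay at 3.73, 4.53, 4.10 and 4.26, all below every obese-father male. In females Timm8b read 3.95, 4.40, 5.40 and 4.88 with lean parents and 3.44, 4.21, 3.52 and 3.77 with obese mothers. Obese-father females read 3.59, 5.56, 3.67 and 3.93. Between obese-mother and lean-parent females the log2 fold change was -0.92 (SE 0.38, limma adjusted p = 0.999), with overlapping groups. Timm22, the channel for carrier proteins, was dim throughout, at 2.20, 2.82, 2.27 and 2.05 in obese-father and 2.28, 2.79, 2.60 and 3.31 in lean-parent females. The groups overlapped and the log2 fold change of -0.41 (SE 0.25) did not pass (limma adjusted p = 1). The escorts Timm10 and Timm13 stood at 0.56 and 0.42 in obese-father males and at 0.52 and 0.40 in obese-mother males, without passing. In obese-father males they were 0.03 and 0.01 with the covariate and 0.29 and 0.14 without arrays 12 and 22.

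Hspd1 and Hspe1 encode the chamber and the lid of the matrix chaperonin, and RefSeq places them head to head on mouse chromosome 1. One annotated start of Hspd1, on the minus strand, lies 216 bases from the start of Hspe1 on the plus strand. The stretch between these starts is shown because the 2 genes had the closest paired levels of all members (below). It covers chr1:55087933-55088147 in GRCm38.p6 and is written 5′ to 3′ on the plus strand, that is, in the direction of Hspe1. Capitals mark overlapping matches to the palindromic heat shock element cores GAANNTTC and TTCNNGAA.
Hspd1 to Hspe1 stretch: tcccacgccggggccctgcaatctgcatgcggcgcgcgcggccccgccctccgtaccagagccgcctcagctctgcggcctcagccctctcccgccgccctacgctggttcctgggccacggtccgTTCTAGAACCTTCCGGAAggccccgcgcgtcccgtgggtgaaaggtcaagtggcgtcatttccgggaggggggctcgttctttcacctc
The stretch of 215 bases held TTCNNGAA at positions 127 and 137 and GAANNTTC at position 132, counted from its 5′ end. It also held the GC box GGGCGG on the opposite strand at positions 44 and 95. The second annotated start of Hspd1 lies inside the span of Hspe1, so the annotated genes overlap on opposite strands.

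In the 300-base windows around annotated starts (250 before to 50 after), both strands searched, TTCNNGAA occurred in 10 of 36 windows of members (27.8%), against 8.52% of all 32851 windows. Apart from Hspd1 and Hspe1 these belonged to Clpp, Timm10, Timm13, Timm8a2, Timm9, Timmdc1, Tomm20 and Tomm22. GAANNTTC occurred in 3 of 36 (8.33%, all windows 7.86%). GGGCGG occurred in 58.3% (all windows 35.7%) and CCAAT in 27.8% (37.4%). The core motif of nuclear respiratory factor 1 occurred in 4 of 36 (11.1%, all windows 4.6%), those of Hspd1, Pam16, Timm8b and Tomm20. TGACGTCA was found in 1 member window (2.78%, all windows 1.79%), that of Trap1, and TTGCATCA in 0 (all windows 0.895%). The windows of Hspd1 and Hspe1 share sequence and are not independent, and 33 of the 37 members had a window.

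On the arrays Hspd1 read 3.84, 6.96, 7.97 and 2.06 in lean-parent males and 7.19, 7.59, 7.44 and 8.24 in obese-father males. It read 3.89, 7.35, 5.27 and 7.64 in obese-mother males. The obese-father males were uniformly high, whereas each of the other male groups held a low and a high pair of arrays. The low pairs had a narrow signal spread, at 1.29 and 1.27 (arrays 1 and 4) and 1.32 and 1.36 (arrays 5 and 7). The high pairs had a spread of 1.42 to 1.54 and the obese-father males one of 1.49 to 1.72. In females Hspd1 read 5.90, 7.16, 7.68 and 6.70 with lean parents, 6.27, 9.04, 5.84 and 4.59 with obese fathers and 6.34, 7.12, 4.69 and 5.84 with obese mothers. Array 22 was highest and array 4 lowest of all 24.

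Hspe1 had the brightest probe set of the members and repeated the pattern, with 6.13, 8.45, 8.87 and 5.84 in lean-parent and 8.68, 9.05, 9.22 and 9.76 in obese-father males. Obese-mother males had 6.70, 8.81, 6.93 and 8.35. In females it read 7.06, 8.96, 8.95 and 8.71 with lean parents, 7.92, 10.21, 7.75 and 7.25 with obese fathers and 8.04, 8.93, 6.44 and 7.58 with obese mothers. The groups overlapped in every comparison. The log2 fold change in obese-father males was 2.41 for Hspd1 (SE 1.06, limma adjusted p = 0.322, 95% interval 0.21 to 4.60) and 1.85 for Hspe1 (SE 0.72, adjusted p = 0.316, 0.36 to 3.35). With the spread as a covariate they were 0.46 and 0.47, and without lean-parent array 4 Hspd1 stood at 1.36. In obese-father females they were -0.43 and -0.14, and the difference between the sexes of 2.83 and 1.99 did not pass (limma adjusted p = 0.654 for each). Without arrays 12 and 22 the values in obese-father females were -1.30 and -0.78 and the differences between the sexes 3.49 and 2.44, against 0.95 and 0.65 with the covariate. Trap1, the mitochondrial Hsp90, differed by 0.15 in obese-father males, -0.08 with the covariate and 0.00 without arrays 12 and 22.

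Across the 24 arrays Hspd1 and Hspe1 varied together with Pearson r = 0.951 and Spearman rho = 0.916. Both had a permutation p of 1e-05, the lowest value attainable with 100000 permutations, which became 3e-05 and 6e-05 after adjustment over 6 pairs. Without the 2 arrays farthest from the median of Hspd1, r was 0.942. With group means subtracted it was 0.943. It was the highest r of the 528 pairs of tested members. Next came Hspa9, on chromosome 18, with Hspe1 (0.940) and with Hspd1 (0.903). After regression of each gene on the signal spread, r of Hspd1 with Hspe1 was 0.751 and rho 0.600 (permutation p adjusted over 6 pairs 0.00024 and 0.0144). This r was again the highest of 528, and it was 0.646 without the 2 arrays of the most distant Hspd1 residual. Hspa9 with Hspe1 ranked 3 after the regression, at 0.619. On arrays 22 and 12, of widest spread, the residuals were -1.31 and -1.05 for Hspd1 and -0.84 and -0.51 for Hspe1. On arrays 4 and 1, of narrowest spread, they were -2.26 and -0.78, and -0.76 and -0.69. The straight-line regression may thus leave a shared part of the spread in the residuals of both genes, and its share in their r was not tested. The annotation gives 2 probe sets each to Hspd1 and Hspe1, and r over the 4 combinations ran from 0.944 to 0.957, or from 0.676 to 0.784 after the regression. RefSeq names 5 pseudogenes or related copies of Hspd1 and 7 of Hspe1, so part of either signal may come from copies.

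**Figure D3:**
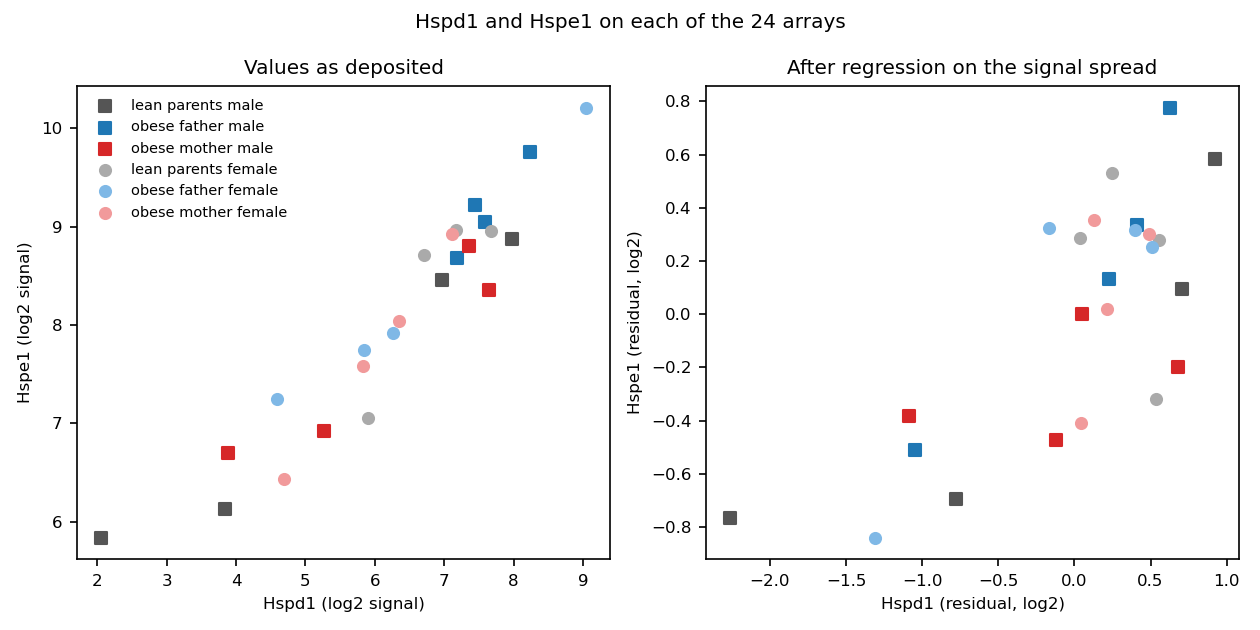
Hspe1 against Hspd1 on each of the 24 arrays, coloured by group, as deposited (left, log2 signal, r = 0.951) and as residuals after regression on the signal spread (right, r = 0.751). The 4 obese-father males lie at the upper right on the left, and lean-parent male array 4 lies lowest on both axes of the left plot.

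The other 5 pairs of partners in a complex were less closely tied. Hspa9 with Grpel1 had r = 0.792 and rho = 0.693, Dnajc19 with Pam16 had 0.771 and 0.458, and Timm17a with Timm23 had 0.737 and 0.74. The peptidase subunits Pmpca and Pmpcb had 0.724 and 0.61, and Timm8a1 with its partner Timm13 had 0.52 and 0.528. Over all 6 pairs the adjusted permutation p was at most 0.00968 for r and 0.0253 for rho. After regression on the spread r of these 5 pairs ran from -0.20 to 0.32, with adjusted permutation p from 0.403 to 0.776. Among the 6 only Hspd1 with Hspe1 passed, with the limit of the straight line given above. Without the 2 arrays farthest from the median of the named first gene, r of the 5 pairs as deposited ran from 0.513 to 0.676.

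A start on the opposite strand up to 500 bases upstream was annotated for 12 of 33 members with a window (36.4%), against 10.9% of all 27025 genes. In 7 such pairs both genes were tested. Phb2 with Emg1 had r = 0.83 as deposited and 0.41 after regression on the spread (24 arrays), and Timm17b with Pqbp1 had 0.356 and 0.449. Timm23 with Parg had 0.626 and -0.03. Timm8b with the succinate dehydrogenase subunit Sdhd, whose starts lie 52 bases apart, had -0.10 and 0.09, and Pmpca with Entr1, 32 bases apart, had 0.06 and 0.00. Grpel1 with 2210406O10Rik, 331 bases apart, had -0.27 and 0.33. The part of a shared stretch between starts in these levels was not tested.

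The processing peptidase and the matrix proteases are covered by 4 tested members, 3 of which stood above 0 in obese-father males (median 0.22) and 1 in obese-mother females (median -0.15). The covariate fit changed the sign of both, to -0.25 and 0.02. Pmpca, the subunit of the processing peptidase that recognises presequences, read 3.36, 3.62, 3.63 and 3.60 in obese-mother females and 3.98, 3.85, 4.31 and 4.64 in lean-parent females. Obese-father females read 3.65, 5.86, 4.29 and 3.83. All obese-mother females lay below all other female arrays, and in the comparison with lean parents Pmpca was the 1 member of 33 without overlap on the lower side (background 0.639%), with 0 on the higher side (background 1.89%). The log2 fold change was -0.64 (SE 0.38, limma adjusted p = 0.999) against lean parents and -0.85 (SE 0.38, adjusted p = 0.975) against obese fathers, or -0.37 without arrays 12 and 22. With the covariate they were -0.40 and -0.59. The catalytic subunit Pmpcb differed by -0.26 between obese-mother and lean-parent females, and 0.03 with the covariate. Clpp, the proteolytic core of a matrix protease, stood at 4.29 ± 0.45 in obese-father and 3.90 ± 0.17 in lean-parent males (n = 4 each), a log2 fold change of 0.40 (SE 0.19, limma adjusted p = 0.337). It was 0.21 without arrays 12 and 22. Lonp1, the other main matrix protease, ranged from 2.83 to 3.41 and differed by -0.17 in obese-father males, -0.29 with the covariate and -0.11 without arrays 12 and 22. Phb2, a subunit of the prohibitin ring of the inner membrane, differed by 0.68 in obese-father males and 0.39 in obese-mother females, without passing. With the covariate the first turned to -0.40, and the second was 0.79.

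Obese mothers were also compared directly with obese fathers. In males 7 of 33 members stood above 0 (background 65.1%) with a median of -0.22 (all genes 0.09). Without arrays 12 and 22 it was 13 of 33 (background 63.8%, median -0.16), and with the spread as a covariate 14 of 33 (background 56.9%, median -0.02). The smallest unadjusted p belonged to Hspe1 (-1.48, SE 0.72, limma adjusted p = 0.573), and 0 of 33 passed (background 0.00751%), nor did any have an unadjusted p under 0.05 (background 6.27% higher and 2.08% lower). Leaving out arrays 12 and 22 gave 1 member at that p on the higher side (Pam16) and 1 on the lower side (Timm8b). Of all 13311 genes 563 and 275 did so. Timm8b, at -0.72, was the 1 member without overlap on the lower side (background 1.28%), with 0 on the higher side (background 5.57%). In females 8 of 33 stood above 0 (background 55.5%), 24 of 33 without arrays 12 and 22 (background 47%) and 17 of 33 with the covariate (background 47.3%). The medians were -0.26, 0.09 and 0.01. Pmpca was the 1 member at an unadjusted p under 0.05, on the lower side (background 1.28%, and 1.97% on the higher side), and the 1 member without overlap (background 0.684% lower and 0.917% higher). Leaving out arrays 12 and 22 gave 0 members at that p on either side, against 163 higher and 247 lower of all 13311 genes. None passed in limma (background 0%).

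Sex was compared within each kind of parents. No member passed in limma in any of the 3 comparisons (background 0%, 0% and 0.00751% for lean parents, obese mothers and obese fathers). Over all genes tested, the smallest limma adjusted p was 0.992 with lean parents and 0.99988 with obese mothers. So among the 13311 genes tested, none on any chromosome passed between the sexes in either of these comparisons. Markers of sex were not examined singly, and whether the sex calls or the precision limit the sex comparisons was not tested. At an unadjusted p under 0.05, Tomm6 was the 1 member on the lower side among lean-parent males (background 0.849%, and 2.52% on the higher side). It was also the 1 member whose sexes did not overlap (background 0.481% lower and 1.71% higher). With obese mothers and obese fathers there were 0 members at that p (background 0.706% on each side, and 1.47% higher and 3.94% lower). There were also 0 without overlap (background 0.766% higher and 0.894% lower, and 0.616% higher and 1.43% lower). Leaving out arrays 12 and 22 gave, for obese fathers, 2 members at an unadjusted p under 0.05 on the higher side and 0 on the lower. Of all 13311 genes 498 and 1097 did so. With lean parents 6 of 33 members stood above 0 in males against females (background 62.6%, median -0.36 against 0.06 over all genes). With obese mothers it was 18 of 33 (background 47.3%) and with obese fathers 21 of 33 (background 35.3%). Without arrays 12 and 22 the last count was 26 of 33 (background 34.8%). In the fit with the spread as a covariate the counts were 12 of 33 for lean parents (background 53.7%, median -0.08), 15 of 33 for obese mothers (background 50.9%, median -0.07) and 12 of 33 for obese fathers (background 44.3%, median -0.07, against 0.12 without the covariate). The X-linked Timm8a1, a small Tim whose human counterpart is mutated in a deafness and dystonia syndrome, read 4.40, 5.43, 5.61 and 4.97 in males and 4.99, 5.73, 5.83 and 5.46 in females of lean parents. With obese fathers it read 5.64, 6.11, 5.53 and 5.91 and 5.38, 7.21, 5.30 and 4.09, and with obese mothers 5.34, 5.39, 3.58 and 5.74 and 4.32, 6.53, 4.22 and 4.84. The sexes overlapped in all 3, with differences of -0.40, 0.30 and 0.04. Each changed sign with the covariate, to 0.03, -0.14 and -0.13, and the obese-father one was 0.83 without arrays 12 and 22.

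The other X-linked member, Timm17b, a variant of the channel partner Timm17a, had the lowest mean of the tested members and is close to the table median. It read 2.57, 2.54, 2.31 and 2.83 in males and 2.37, 2.98, 2.33 and 2.52 in females of lean parents. With obese fathers it read 2.24, 2.40, 2.54 and 2.50 and 2.33, 2.44, 2.79 and 2.83, and with obese mothers 2.30, 2.16, 2.64 and 2.42 and 2.31, 2.49, 2.62 and 2.64. The sexes overlapped again, with differences of 0.01, -0.18 and -0.14 (95% intervals -0.31 to 0.34, -0.51 to 0.15 and -0.47 to 0.19), and none passed. With the covariate they were -0.03, -0.13 and -0.12.

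The members varied with the signal spread to very different degrees. Over the 24 arrays, Pearson r with the spread was above 0.5 for 21 of 33 members and below -0.5 for 2 (Tomm20l -0.81, Tomm40l -0.57). Of all genes tested 17.5% and 43.5% lay in these ranges. Timm23 (0.95), Hspe1 (0.92), Hspa9 (0.91) and Tomm70a (0.91) followed it most closely, and Tomm5 (-0.04), Timm50 (0.06), Timm22 (0.16) and Timm21 (0.19) followed it least. Since the spread is built from the values of all genes, these are descriptions without a test. Over the 528 pairs of members the median r was 0.28 (all gene pairs 0.09), and 0.01 after regression on the spread (all gene pairs 0.01).

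**Figure D4:**
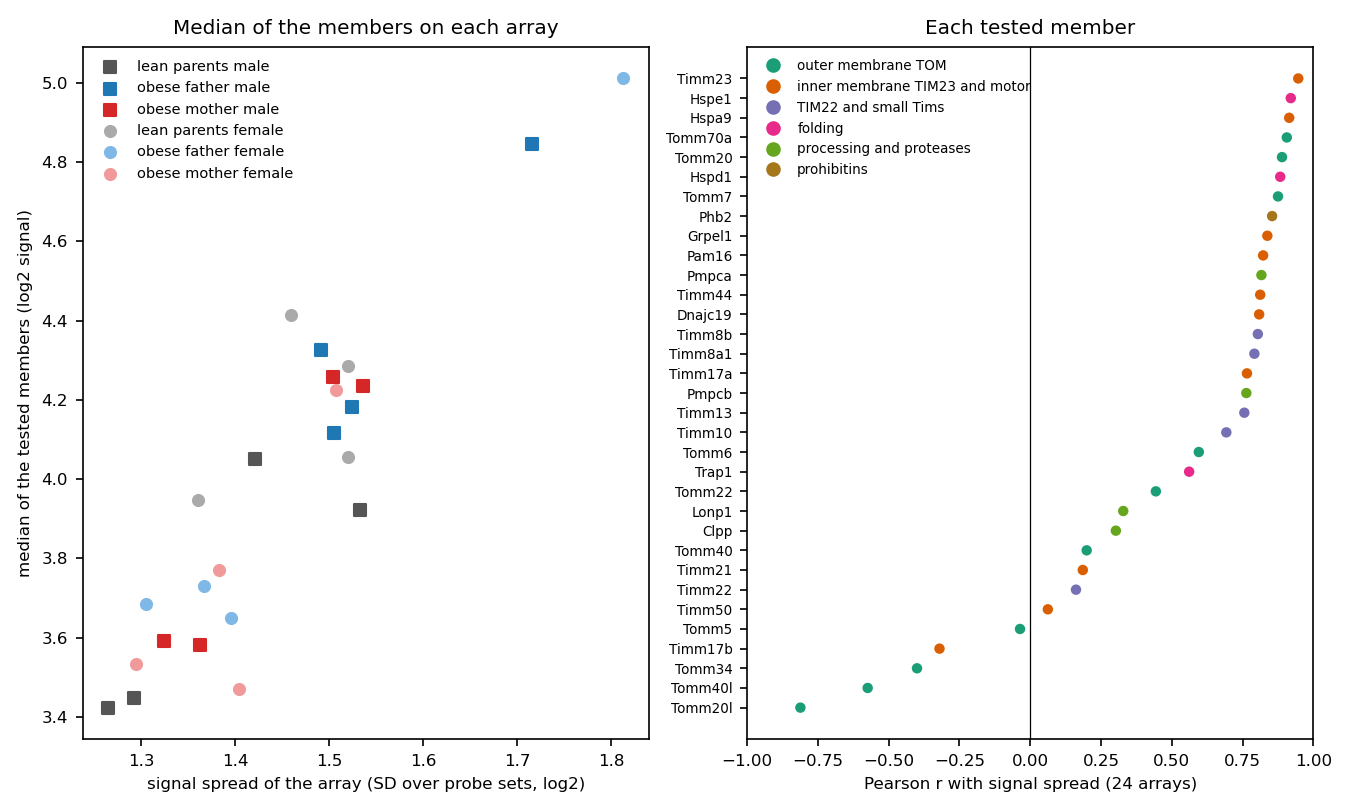
Left, the median log2 signal of the 33 tested members on each array against the signal spread of the array, coloured by group. Right, Pearson r of each member with the spread over 24 arrays, from -0.81 (Tomm20l) to 0.95 (Timm23), coloured by role. Arrays 22 and 12 have the widest spread and the highest medians (5.01 and 4.84).

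Of 39 other genes of the import and quality control machinery, 38 were named on the array and 33 tested, and none passed in limma in any of the 11 comparisons. In obese-father males 20 of 33 stood above 0 (background 33.3%) with a median of 0.08, and 4 had an unadjusted p under 0.05 on the higher side (background 4.3%) and 1 on the lower side (background 10.4%). The covariate fit put 13 of 33 above 0 (background 46.6%, median -0.06). Without arrays 12 and 22 it was 16 of 33 (background 34.2%, median -0.00). The smallest p belonged to Aifm1, which anchors the disulfide relay of the intermembrane space, at 3.64 ± 0.24 against 2.73 ± 0.56 (n = 4 each, log2 fold change 0.91, SE 0.32, limma adjusted p = 0.316). The outer membrane insertase Mtch2 followed at 6.02 ± 1.24 against 4.59 ± 0.89, and the J-protein Dnajc15 at 3.40 ± 1.41 against 2.14 ± 0.30. The 3 fold changes of 0.91, 1.42 and 1.26 were 0.33, 0.38 and 0.51 with the covariate and 0.82, 0.90 and 0.56 without arrays 12 and 22. With the covariate 0 of the 33 had an unadjusted p under 0.05 on the higher side and 2 on the lower side. Of all 13311 genes 332 and 624 did so. Without arrays 12 and 22 it was 1 higher (background 3.54%) and 0 lower (background 7.51%). In the other 3 comparisons with lean parents no gene of this list had an unadjusted p under 0.05. With the covariate the numbers were 5 in obese-father females, 5 in obese-mother females and 2 in obese-mother males, against 945, 623 and 655 of all 13311 genes. Without arrays 12 and 22 they were 2, 4 and 0, against 909, 587 and 440 of all genes, and none passed in limma. The smallest p among them belonged in obese-mother females to the intermediate peptidase Mipep (0.50, SE 0.26), the transcription factor Atf4 (-0.29, SE 0.16) and the protease subunit Spg7 (0.25, SE 0.14). In obese-mother males it was Mtx1 (0.33), Pink1 (0.28) and Grpel2 (-0.25). In obese-father females it was Afg3l2 (0.57), Oxa1l (-0.32) and Apool (0.61), which without arrays 12 and 22 stood at 0.27, -0.35 and 0.16.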

How the data were processed

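Labelled targets from pooled blastocyst lysates were hybridised to 24 Affymetrix arrays, per the labels' protocols. The deposited values are log2 signals made by the authors with RMA in affy, per the submitters' processing notes, with versions, build and probe set definitions not given in the sources used here. RMA adjusts background and sets arrays to one distribution of probe values before summarising. Array means ran from 2.82 to 2.86 and no value was missing.

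Of 35556 probe sets, 21789 carried 1 gene symbol in the platform annotation, 1621 several and 12146 none. The set with the highest mean stood for a gene, and the 13311 of 19938 genes above the median of the table on at least 4 arrays were tested. All 24 arrays entered 1 limma fit (version 3.58.1, R 4.3.3) with 6 group means, and p-values were adjusted by Benjamini-Hochberg over all genes tested within each of 11 contrasts. The procedure was tested on simulated data with independent noise for each gene, which lack the signal spread that genes share on these arrays. Exact permutation tests and correlations used Python 3.11.15 with scipy 1.17.1. Promoter windows came from RefSeq on GRCm38.p6.

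Members, lists and tests were chosen with earlier results of these data known. Values on each array are given for up to 3 members with the smallest p in each comparison of an obese with a lean parent, for Hspd1 and Hspe1, for the members with the highest and lowest mean and for X-linked members. Alternatives were the filter, the choice of probe set, the scaling, the variance prior, array weights, the signal spread as a covariate, the groups of a contrast alone, a threshold of 0.1 and the removal of arrays. Arrays have no count depth, and their number limits the precision.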

Additional observations from a re-analysis of the deposited data

Results flagged for a closer look

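In 7 of 78 groups of 4 arrays checked (each member given by array, and the median of the tested members), 1 array stood apart from the other arrays of its group by more than Dixon's critical value for the gap over the range. Chance flags about 1 in 20 groups, and the members share arrays. Array 22, an obese-father female and the array of the widest signal spread (1.81), accounted for 4 of them. Its Timm23 signal was 8.9 with the nearest array at 6.26, its Pam16 signal 6.78 against 4.5, its Timm8b signal 5.56 against 3.93 and the median of its tested members 5.01 against 3.73. The part of the spread in these values was not tested.

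The Hspe1 signal of lean-parent female array 13 was 7.06, below the nearest at 8.71. Timm22 on lean-parent male array 4 read 2.99, above the nearest at 2.5. Pmpca on obese-mother female array 17 read 3.36, below the nearest at 3.6.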

How the results depend on the processing

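The 13 log2 fold changes recomputed under every alternative (the comparisons with lean parents for which Tomm6, Timm23, Hspe1, Hspd1, Tomm40, Timm22, Tomm34, Pam16, Timm8b and Pmpca were listed by array) kept their sign and did not pass in limma. Apart from that of Hspd1, these were picked for a small p in the same data, which favours a stable sign. Other fold changes did change sign. With the spread as a covariate 12, 1, 9 and 11 of 33 members turned (obese-father males and females, obese-mother males and females), and without arrays 12 and 22 it was 1, 12, 0 and 0. Under both settings 0 of 33 passed in each of the 11 contrasts. The median of the members in obese-father males was 0.45. Taking the spread as a covariate moved it to 0.010. It ran from 0.21 (without array 12) to 0.55 when single arrays were left out. In obese-father females the median ran from -0.30 (without array 22) to 0.18 (without array 24), in obese-mother males from -0.04 to 0.17, with values below 0 without array 1, 4, 6 or 8, and in obese-mother females from -0.32 (without array 13) to -0.14. Between obese mothers and obese fathers it ran from -0.33 to -0.12 (without array 5) in males and from -0.39 to 0.09 (without array 22) in females. Hspd1 in obese-father males was 1.36 instead of 2.41 without lean-parent male array 4. Timm22 in obese-father females was -0.22 without array 16, and Tomm34 was 0.32 without array 22 and 0.11 without array 24.

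Of all genes tested, 1 passed in limma between obese-father and lean-parent males. The count was 0 with the stricter filter (12 arrays) or the groups of the contrast alone, 2 with array weights or the spread as a covariate, and 0 to 2 without single arrays. Between obese-mother and obese-father males 1 gene passed. That count was 0 with the stricter filter, the covariate, the groups alone or without arrays 12 and 22, 2 with array weights, and 0 to 2 without single arrays. Between sexes of obese fathers 1 passed, with 0 under the stricter filter, centred arrays or the groups alone, 4 with the covariate, and 0 to 1 without single arrays. The sex difference of the obese-father effect gave 0, and 2 with the covariate. For females the counts of obese fathers against lean parents and of obese mothers against obese fathers were 0, and 0 to 1 without single arrays, the 1 arising without array 23. The cause of these changes was not tested. The alternatives for the pair of Hspd1 and Hspe1 were chosen after seeing the data. No paired analysis was possible because the array numbers of the labels are not shared between groups. Signals near the table median, as for Timm22, Tomm34, Timm17b and Timm21, limit what a difference can show. The same holds for Dnajc15, Afg3l2, Apool and Mipep, whose lean-parent means lay below that median in the comparisons given.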
